A study of Mus musculus with 4 samples.

Results

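Cartilage-forming genes were followed in single cells of injured mouse hindlimbs. The genes were 9 of the 27998 in the deposited matrices, taken by symbol: the transcription factors Sox9, Sox5 and Sox6 and the cartilage matrix genes Acan, Col2a1, Col11a1, Comp, Hapln1 and Matn3. The labels give 4 groups, each of 1 library: injured limbs of Ddr2 slie/slie mice, injured limbs of littermate controls, uninjured limbs of Ddr2 slie/slie mice and uninjured limbs of littermate controls. Every mouse had its back burned over 30% of the body surface and its left Achilles tendon cut, so the uninjured limbs are read here as the other limbs of burned mice. Tissue around the tendon was taken at day 7, and the limbs of 2 mice were pooled in each library. The slie mutation is a spontaneous germline deletion in Ddr2, which encodes a receptor tyrosine kinase for fibrillar collagen, so no cell type was targeted. The control titles carry the tag WT. The labels used here state no age, sex or strain. Because each group is 1 library of pooled mice, no difference between groups could be tested, and all intervals are 95% intervals of counting error only.

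In the formation of cartilage, mesenchymal cells condense and switch on SOX9, the transcription factor that cartilage formation requires. SOX5 and SOX6 lack a transactivation domain and act with SOX9 on the enhancers of matrix genes. The matrix these cells secrete is built on type II and type XI collagen fibrils and on aggrecan bound to hyaluronan. After burn and tenotomy, ectopic bone in this limb arises through a cartilage stage, and tendon and its sheath also use several of these genes.

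The libraries held 1493147 UMIs (unique molecular identifiers, 1 per captured transcript) in slie/slie injured, 4515174 in control injured, 1540053 in slie/slie uninjured and 579790 in control uninjured limbs. Cells were kept from 200 genes upwards if mitochondrial UMIs made up no more than 20%, which left 246, 751, 184 and 60 cells in that order, with median depths of 1218, 1641, 4841 and 1337 UMIs. The deposited barcodes start at different depths, with lowest values of 259, 500, 501 and 48 UMIs in the same order. Ddr2 itself had 0 UMIs in the filtered cells of slie/slie injured and 115 in those of control injured limbs, at least 9.61-fold lower when 3 UMIs are put in place of the 0. It had 2 UMIs, both in 1 cell, in slie/slie uninjured and 3 in control uninjured limbs. Hemoglobin took 5.06% of the UMIs of the filtered cells in slie/slie injured, 6.09% in control injured, 1.15% in slie/slie uninjured and 10.1% in control uninjured limbs. The control uninjured library shared 1 barcode with the control injured library, outside the filter. Fibroblasts were identified as 5 mesenchymal-like clusters, which supported 7 to 12 of 13 mesenchymal markers, with Col1a1, Col3a1 and Dcn in each. Pdgfra was a supporting marker in clusters 2 and 7 only. The 5 clusters held 112 cells in slie/slie injured, 309 in control injured, 77 in slie/slie uninjured and 5 in control uninjured limbs, too few in the last for any ratio. Clusters 0, 2, 6 and 11 held most mesenchymal-like cells of the injured libraries and cluster 7 those of slie/slie uninjured limbs. Defining chondrocyte markers outside the 9 genes were low. Matn1, Chad and Cytl1 were at 0 in mesenchymal-like cells of both injured libraries. The 12 listed markers present in the matrices summed to 6 UMIs or 14.8 CPM (UMIs scaled to a total of 1000000) in slie/slie injured and 85 UMIs or 59.2 CPM in control injured limbs. Those most detected were Col9a2, Col9a3, Col9a1 and Scrg1. In control injured limbs they had 18, 14, 12 and 12 UMIs in mesenchymal-like cells with 2 or more of the 9 genes, and 4, 1, 2 and 3 UMIs in the others. No cluster was named chondrocyte-like. A lower level in summed cells cannot be told apart from fewer cells that hold the transcript.

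The 9 genes together were lower in slie/slie injured than in control injured limbs. Their summed UMIs were 279 in slie/slie injured, 2168 in control injured, 249 in slie/slie uninjured and 54 in control uninjured limbs. This is 276 CPM (245 to 310) in slie/slie injured, 538 CPM (515 to 561) in control injured, 227 CPM (200 to 257) in slie/slie uninjured and 222 CPM (167 to 290) in control uninjured limbs. The control injured library stands above the other 3, whose intervals overlap. The log2 ratio (after adding 1 UMI to each sum) of slie/slie injured over control injured limbs was -0.96 (-1.15 to -0.78), a 1.94-fold lower level. In mesenchymal-like cells the sum was 616 CPM (542 to 697) in slie/slie injured and 1464 CPM (1402 to 1528) in control injured limbs, a log2 ratio of -1.24 (-1.44 to -1.06). When each cell was thinned to 500 UMIs, so that deep cells no longer outweigh shallow ones, the log2 ratios were -0.58 over all filtered cells and -0.67 in mesenchymal-like cells.

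**Figure D1:**
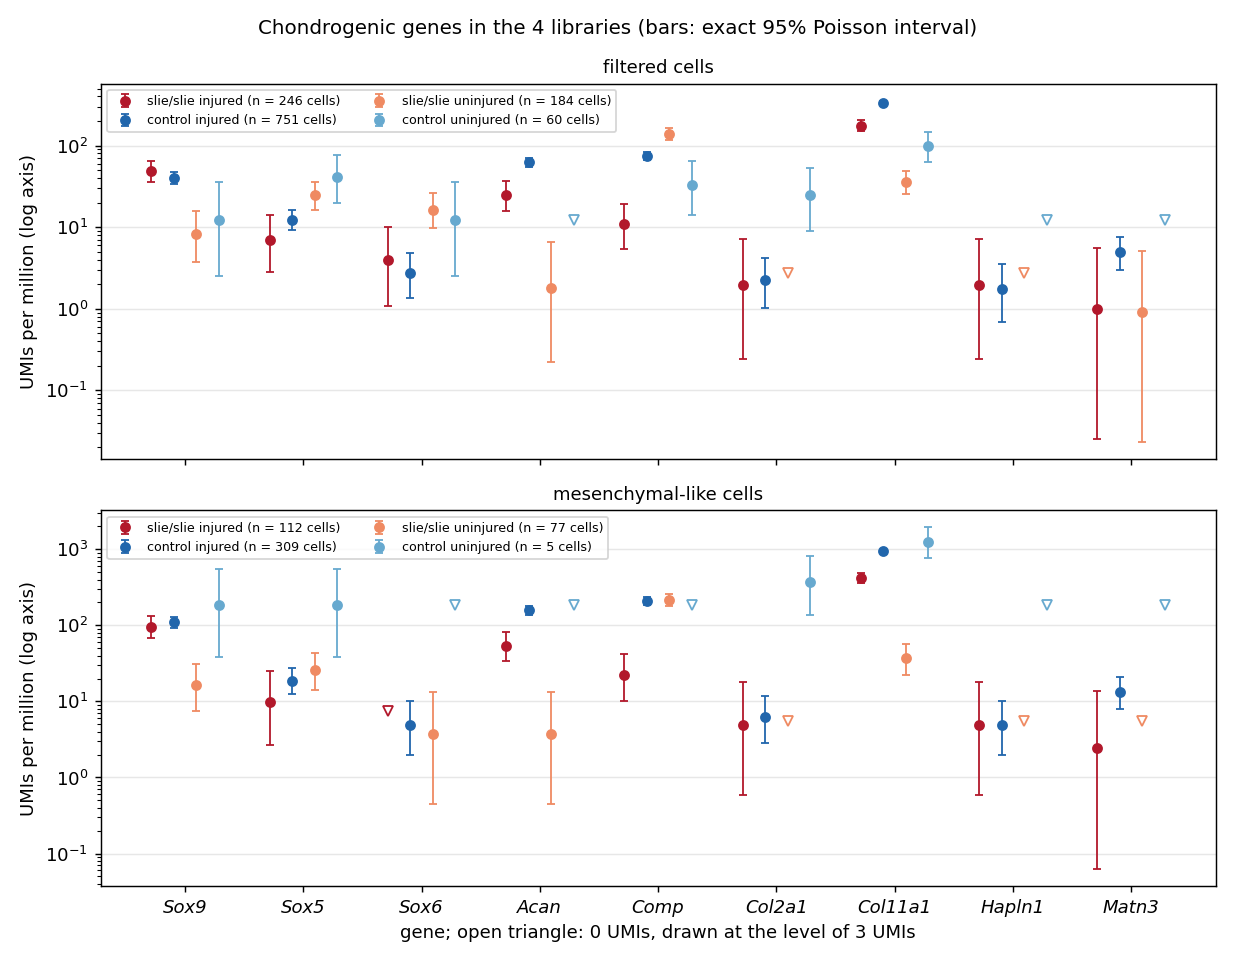
CPM (log axis) of each gene in the 4 libraries, for all filtered cells (top) and mesenchymal-like cells (bottom), with exact 95% Poisson intervals; open triangles mark 0 UMIs. Acan, Comp and Col11a1 are lower in slie/slie injured than in control injured cells in both panels, while Sox9 overlaps.

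Sox9 (mm10, chr11:112782224-112787760, plus strand) was present at similar levels in both injured libraries. It had 49 UMIs in 19 cells of slie/slie injured limbs, or 48.5 CPM (35.9 to 64.1), and 162 UMIs in 74 cells of control injured limbs, or 40.2 CPM (34.2 to 46.9). The log2 ratio was 0.29 (-0.22 to 0.74) over all filtered cells and -0.16 (-0.73 to 0.33) in mesenchymal-like cells, so no difference beyond counting error was seen between the injured genotypes, within those limits. The uninjured limbs had 9 UMIs (8.20 CPM, 3.75 to 15.6) in slie/slie and 3 UMIs (12.4 CPM, 2.55 to 36.1) in control, and these intervals overlap. Sox9 was thus higher in slie/slie injured than in slie/slie uninjured limbs (log2 ratio 2.44, 1.52 to 3.77) and in control injured than in control uninjured limbs (1.30, 0.13 to 3.99). All 3 Sox9 UMIs of control uninjured limbs came from 1 cell, 1 of only 5 mesenchymal-like cells there, against 309 in control injured limbs. Whether Sox9 was higher within such cells of control limbs was not tested.

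Sox9 transcripts were spread over more clusters in slie/slie injured than in control injured limbs. Of the Sox9 UMIs, 38.8% in slie/slie injured and 79.0% in control injured limbs fell in mesenchymal-like cluster 2, the cluster led by Prg4, Tnc and Crabp1. Cluster 0, led by H19 and Mdk, had 13 Sox9 UMIs in slie/slie injured and 20 in control injured cells, which is 215 CPM (115 to 368) in slie/slie and 110 CPM (67.4 to 170) in control cells, a log2 ratio of 1.00 (-0.16 to 2.04). In cluster 2 the log2 ratio was -0.61 (-1.45 to 0.03), with 71.6 CPM in slie/slie injured and 114 CPM in control injured cells. Keratinocyte-like cells, where SOX9 is known in hair follicles, held 8 Sox9 UMIs in slie/slie injured and 5 in control injured limbs.

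Sox5, which encodes a partner of SOX9, was lower in injured than in uninjured limbs of both genotypes, and Sox6, which encodes the other, in slie/slie limbs. Sox5 had 7 UMIs in slie/slie injured, 50 in control injured, 27 in slie/slie uninjured and 10 in control uninjured limbs. Its levels were 6.93 CPM (2.78 to 14.3) in slie/slie injured, 12.4 CPM (9.20 to 16.3) in control injured, 24.6 CPM (16.2 to 35.8) in slie/slie uninjured and 41.2 CPM (19.7 to 75.7) in control uninjured limbs. Both injured libraries were below both uninjured ones, with log2 ratios of -1.69 (-3.27 to -0.60) in slie/slie and -1.84 (-2.73 to -0.59) in control limbs. Between the injured genotypes the Sox5 ratio was -0.68 (-2.23 to 0.31), within counting error. Sox6 had 4 UMIs in slie/slie injured, 11 in control injured, 18 in slie/slie uninjured and 3 in control uninjured limbs, and its ratio of slie/slie injured over slie/slie uninjured limbs was -1.81 (-4.07 to -0.45). In control limbs it had too few UMIs for a ratio. Much of this signal was outside fibroblasts. Pericyte or smooth muscle-like cells held 3 of 7 Sox5 UMIs in slie/slie injured, 20 of 50 in control injured, 11 of 27 in slie/slie uninjured and 7 of 10 in control uninjured limbs. That class was 19 of 246 filtered cells in slie/slie injured, 51 of 751 in control injured, 20 of 184 in slie/slie uninjured and 13 of 60 in control uninjured limbs. Over all filtered cells its 10 markers summed to 4274 CPM in slie/slie injured, 2372 CPM in control injured, 5000 CPM in slie/slie uninjured and 14608 CPM in control uninjured limbs, all 10 detected in each, and their part in the Sox5 ratios was not tested. Sox9 was not detected in that class in any library. Sox6 also appeared in Schwann or glial-like cells of the uninjured limbs, with 5 UMIs in slie/slie and 2 in control.

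Col11a1 (chr3:114030540-114220718, plus strand), which encodes a chain of the minor fibrillar collagen XI that nucleates collagen fibrils, supplied most of the UMIs of the 9 genes in injured limbs. It had 178 UMIs in slie/slie injured, 1355 in control injured, 39 in slie/slie uninjured and 24 in control uninjured limbs. The levels were 176 CPM (151 to 204) in slie/slie injured, 336 CPM (318 to 354) in control injured, 35.6 CPM (25.3 to 48.6) in slie/slie uninjured and 98.8 CPM (63.3 to 147) in control uninjured limbs. The order was control injured, slie/slie injured, control uninjured and slie/slie uninjured, and each neighbour in that order was separated beyond counting error. The log2 ratio of slie/slie injured over control injured limbs was -0.93 (-1.17 to -0.71), and -1.15 (-1.40 to -0.93) in mesenchymal-like cells. With injury Col11a1 was 4.86-fold (3.49 to 7.20) higher in slie/slie and 3.27-fold (2.28 to 5.33) higher in control limbs, over all filtered cells. Mesenchymal-like cells were 309 of 751 filtered cells in control injured limbs and 5 of 60 in control uninjured limbs. Those 5 cells held 20 of the 24 Col11a1 UMIs of control uninjured limbs. No ratio was taken within mesenchymal-like cells of control limbs, so a rise within them was not shown. In slie/slie limbs the log2 ratio within such cells was 3.45. In mesenchymal-like cells, 33 of 112 from slie/slie injured limbs (29.5%) and 125 of 309 from control injured limbs (40.5%) held a Col11a1 UMI. Of the 24 Col11a1 UMIs of control uninjured limbs 16 lay in 1 cell, so the place of that library above slie/slie uninjured limbs rests on that cell.

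Col2a1 (chr15:97975602-98004695, minus strand), the major collagen of cartilage, was near absent. It had 2 UMIs in slie/slie injured, 9 in control injured, 0 in slie/slie uninjured and 6 in control uninjured limbs. The 9 UMIs of control injured limbs were in 4 cells of cluster 2, each of which also held Acan, and the 6 of control uninjured limbs were in 1 cell of 10162 UMIs that also held 3 Sox9, 3 Sox5 and 4 Col11a1 UMIs. In slie/slie injured limbs the 2 UMIs were in 2 cells, and no cell held both Col2a1 and Acan.

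Acan (chr7:79053483-79115099, plus strand), which encodes the proteoglycan aggrecan that gives cartilage its resistance to compression, was found almost wholly in injured limbs and was lower in slie/slie than in control injured limbs. It had 25 UMIs in 10 cells of slie/slie injured, 251 UMIs in 52 cells of control injured, 2 UMIs in 1 cell of slie/slie uninjured and 0 UMIs in control uninjured limbs. The levels were 24.7 CPM (16.0 to 36.5) in slie/slie injured, 62.2 CPM (54.8 to 70.4) in control injured and 1.82 CPM (0.22 to 6.59) in slie/slie uninjured limbs, and 0 UMIs allowed up to 15.2 CPM in control uninjured limbs. The injured genotypes did not overlap, with a log2 ratio of -1.28 (-1.99 to -0.74), and -1.48 (-2.24 to -0.90) in mesenchymal-like cells. Thinned to 500 UMIs per cell, the ratio was -0.24 over all filtered cells and -1.11 in mesenchymal-like cells. The 1 UMI added to small thinned sums draws both values upwards. Acan was 9.41-fold (3.38 to 118) higher in slie/slie injured than in slie/slie uninjured limbs, and at least 5.04-fold higher in control injured than in control uninjured limbs when 3 UMIs are put in place of the 0. With every mesenchymal-like cell weighted equally, the slie/slie ratio of injured over uninjured limbs was -0.45 on the log2 scale, and -0.15 after thinning; the 2 uninjured UMIs lay in 1 cell of cluster 0. Acan also had 3 UMIs in pericyte or smooth muscle-like cells of slie/slie injured and 23 in those of control injured limbs. Hapln1, whose product links aggrecan to hyaluronan, had 2 UMIs in 1 cell of slie/slie injured and 7 in 5 cells of control injured limbs, and 0 in both uninjured libraries.

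Acan, Col11a1 and Matn3 were often found in the same cells, and the bases before their transcription starts are shown. In control injured limbs all 12 Matn3 cells held Col11a1 and 7 of them held Acan. The same reason would cover Hapln1, whose window is not shown. All 5 Hapln1 cells there held Col11a1 and 4 of them held Acan. The windows come from a table of RefSeq (GRCm38.p6) promoters, in which 6 of the 9 genes were matched. The windows of Sox9, Comp and Col2a1 were not analysed here. Those shown are the 250 bases before the start on the plus strand, at chr7:79052976-79053225 for Acan, chr3:114030290-114030539 for Col11a1 and chr12:8947679-8947928 for Matn3. The RefSeq start used for Acan lies 257 bases from the nearest start in the annotation behind the gene positions given here, and those of Col11a1 and Matn3 are the same in both. Capitals mark the promoter motif CCAAT on either strand.
Acan: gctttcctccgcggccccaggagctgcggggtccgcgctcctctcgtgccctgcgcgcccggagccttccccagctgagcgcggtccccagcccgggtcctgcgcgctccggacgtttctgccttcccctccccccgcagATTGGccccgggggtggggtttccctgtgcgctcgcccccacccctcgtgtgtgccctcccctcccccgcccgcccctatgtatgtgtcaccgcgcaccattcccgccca
Col11a1: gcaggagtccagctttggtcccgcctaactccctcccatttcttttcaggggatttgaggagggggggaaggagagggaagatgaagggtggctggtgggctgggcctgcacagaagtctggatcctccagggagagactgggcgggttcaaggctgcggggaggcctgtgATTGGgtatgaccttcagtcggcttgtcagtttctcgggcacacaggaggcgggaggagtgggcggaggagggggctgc
Matn3: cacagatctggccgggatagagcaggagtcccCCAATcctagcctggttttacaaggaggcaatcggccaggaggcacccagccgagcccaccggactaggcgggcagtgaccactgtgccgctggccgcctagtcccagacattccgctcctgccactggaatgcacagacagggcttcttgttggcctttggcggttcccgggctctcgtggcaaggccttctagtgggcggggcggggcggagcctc
CCAAT stood on the opposite strand 110 bases before the start in Acan and 79 bases before it in Col11a1, and on the same strand 218 bases before it in Matn3. It is in 33.8% of all 32851 windows of this length. The core letters of SOX binding sites, ACAAT and ACAAAG, were searched on both strands and were in none of these 3 windows, against 38.8% of all windows with either. Of the other windows matched, those of Hapln1 and Sox5 hold 1 such match each, and the 6 windows of Sox6 hold between 1 and 4. The windows of Hapln1 and Sox5 hold no CCAAT, and some of those of Sox6 do. The Hapln1 window thus differs from the 3 shown in both motifs, although Hapln1 shared cells with Acan and Col11a1. A match or its absence is a description of the letters in these windows only. The GC content was 74.4% in Acan, 62.4% in Col11a1 and 65.2% in Matn3.

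Comp (chr8:70373558-70382066, plus strand), which encodes a matrix protein of cartilage and of tendon, had the largest gap between the injured genotypes among those of the 9 genes with at least 20 UMIs. It had 11 UMIs in 5 cells of slie/slie injured, 303 UMIs in 45 cells of control injured, 153 UMIs in 29 cells of slie/slie uninjured and 8 UMIs in 4 cells of control uninjured limbs. The levels were 10.9 CPM (5.43 to 19.5) in slie/slie injured, 75.1 CPM (66.9 to 84.1) in control injured, 139 CPM (118 to 163) in slie/slie uninjured and 32.9 CPM (14.2 to 64.9) in control uninjured limbs. The slie/slie injured library was low and the slie/slie uninjured one high. The log2 ratio of slie/slie injured over control injured limbs was -2.67 (-3.81 to -1.93), a 6.35-fold lower level, and -3.09 (-4.38 to -2.29) in mesenchymal-like cells. With injury the log2 ratio was -3.56 (-4.71 to -2.80) in slie/slie and 1.02 (0.19 to 2.42) in control limbs. The control value rests on the 8 UMIs of control uninjured limbs. Over all barcodes, those outside the filter included, Comp was at 67.3 CPM (60.0 to 75.3) in control injured and 100.04 CPM (76.0 to 129) in control uninjured limbs. Thinning to 500 UMIs gave a log2 ratio of -1.08, which the 1 UMI added to the small control uninjured sum lowers. Equal weights gave -0.53, so the direction in control limbs depends on the barcodes and weights used. In control injured limbs 3 cells with 61, 53 and 53 UMIs held 55.1% of the Comp UMIs. In slie/slie uninjured limbs 117 of the 153 UMIs were in mesenchymal-like cells, 111 of them in cluster 7. Matn3, which encodes a matrix adaptor protein of growth plate cartilage, had 1 UMI in slie/slie injured, 20 in control injured, 1 in slie/slie uninjured and 0 in control uninjured limbs, with a log2 ratio of -1.40 (-7.70 to 0.32) between the injured genotypes.

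Counted by gene, 6 of the 9 had at least 20 UMIs over both injured libraries. Of these, 5 (Sox5, Acan, Comp, Col11a1 and Matn3) were lower by 1.5-fold or more in slie/slie injured than in control injured limbs and none was higher. Of the 11313 genes measured 13.0% were lower by as much and 13.8% higher. The intervals of Sox5 and Matn3 include no difference. Without the 3 deepest cells of each library 3 were lower (Acan, Comp and Col11a1). Sox5 was then at -0.50 (-2.21 to 0.54), and Matn3 fell under 20 UMIs and was not measured. Thinned to 500 UMIs per cell, only Comp was lower (-1.57) and Matn3 was counted higher (1.02), with Col11a1 at -0.49, Sox5 at -0.25 and Acan at -0.24. The thinned sums are small and the slie/slie injured total is the smaller, so the 1 added UMI raises these ratios. The only Matn3 UMI of slie/slie injured limbs lay in a cell of 76827 UMIs. Its thinned value therefore comes from the added UMI and shows no higher level. The median log2 ratio of the 6 was -1.10, and 0.04 over all genes measured. In mesenchymal-like cells 5 of 6 were again lower and none higher, where 16.0% of 8088 genes were lower and 13.5% higher, with a median of -1.32 for the 6 and 0.00 for all genes. Thinned, 2 were lower there and 1 was counted higher (Matn3, again through the added UMI). Sox9 was the 1 measured gene not past 1.5-fold in either population. With injury, 3 of 6 genes measured in slie/slie limbs were higher (Sox9, Acan and Col11a1; background 20.0% of 9221 genes) and 3 were lower (Sox5, Sox6 and Comp; background 22.8%). In control limbs 4 of 6 were higher (Sox9, Acan, Comp and Col11a1; background 26.0% of 10959 genes) and Sox5 was lower (background 31.4%). Control limbs could not be compared within mesenchymal-like cells, which numbered 5 in control uninjured limbs. In mesenchymal-like cells of slie/slie limbs 3 of 4 measured genes were higher with injury (background 23.3% of 5795 genes) and Comp was lower (background 20.5%), although different clusters hold most of these cells in the injured and uninjured library. These comparisons share the injured libraries with the one between genotypes. Between the uninjured limbs, Comp was higher in slie/slie than in control (log2 ratio 1.92, 1.07 to 3.32; 20.1% of 7490 genes were higher by 1.5-fold). Col11a1 was 2.82-fold lower (1.60 to 4.74) and Sox5 was lower at a log2 ratio of -0.83 (-1.83 to 0.47), with 20.8% of genes lower. The control uninjured level of each rests on 4 to 6 cells, and for Col11a1 16 of the 24 UMIs lay in 1 cell. Over all barcodes Comp was at 105 CPM in slie/slie uninjured and 100.04 CPM in control uninjured limbs (log2 ratio 0.06, -0.37 to 0.53), so its difference among filtered cells was not seen there.

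**Figure D2:**
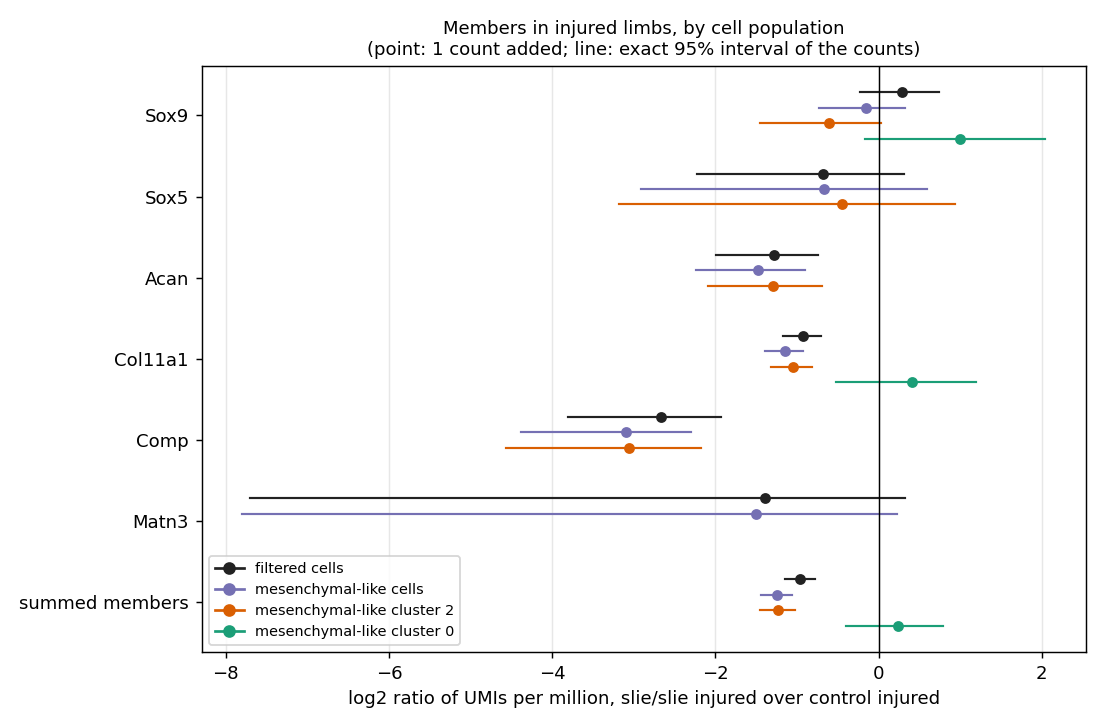
Log2 ratios of CPM, slie/slie injured over control injured limbs, for genes with at least 20 UMIs over both libraries in each population; points include 1 added UMI and lines are exact 95% intervals of the counts. Acan, Col11a1 and Comp lie left of 0 in filtered cells, mesenchymal-like cells and cluster 2, and Sox9 crosses 0 in all 4 populations drawn.

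The signal sat in fibroblasts, and mostly in 1 cluster of them. Mesenchymal-like cells held 89.6% of the summed UMIs of the 9 genes in slie/slie injured, 97.0% in control injured, 65.9% in slie/slie uninjured and 59.3% in control uninjured limbs. Cluster 2 alone held 198 of the 279 UMIs (71.0%) from slie/slie injured limbs and 1974 of the 2168 (91.1%) from control injured limbs. It had 20 cells with a median of 6366.5 UMIs in slie/slie injured and 103 cells with a median of 6871 UMIs in control injured limbs. The medians were close, but the 3 deepest cells held 64.1% of the cluster's UMIs in slie/slie injured and 16.4% in control injured limbs. Within it the summed genes were at 746 CPM (646 to 857) in slie/slie injured and 1757 CPM (1680 to 1836) in control injured cells, a log2 ratio of -1.23 (-1.45 to -1.02). Of the 5 genes measured in cluster 2, 4 were lower by 1.5-fold or more and none was higher (17.7% of 7175 genes were lower and 15.7% higher), with Comp at -3.05 (-4.57 to -2.18), Acan at -1.29 (-2.09 to -0.69), Col11a1 at -1.05 (-1.32 to -0.81) and Sox9 at -0.61 (-1.45 to 0.03). Cluster 0, with 57 cells in slie/slie injured and 124 in control injured limbs at medians of 674 and 901 UMIs, gave a log2 ratio of 0.23 (-0.40 to 0.79) for the sum, and of 2 genes measured Sox9 was higher and none lower (17.5% of 1776 genes were higher and 15.3% lower). A test of cluster 2 against cluster 0 was not possible with 1 library per group. Of the mesenchymal-like cells, 64 of 112 in slie/slie injured limbs and 142 of 309 from control injured limbs had under 0.5% mitochondrial UMIs. Without those cells the log2 ratio of the summed genes was -1.21 (-1.42 to -1.01), and among those cells alone -0.30 (-1.06 to 0.33).

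**Figure D3:**
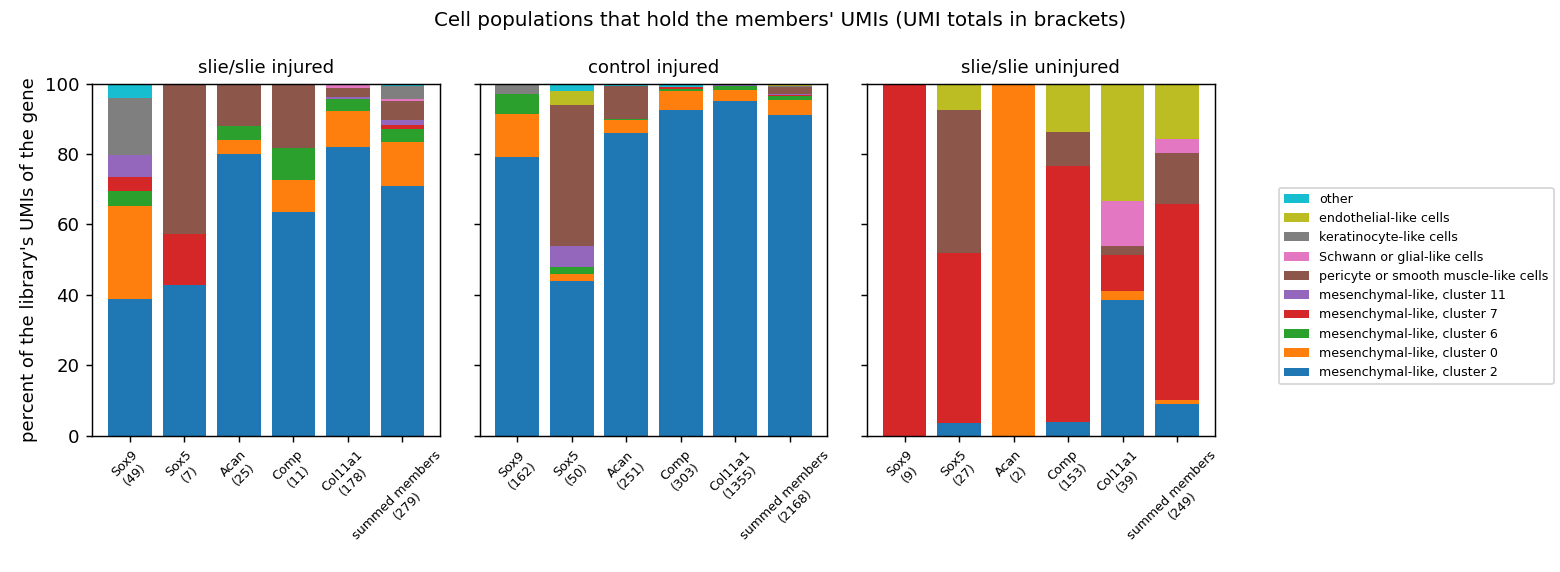
Share of each gene's UMIs (percent) held by each cell population in slie/slie injured, control injured and slie/slie uninjured limbs, with the gene's UMIs in brackets under each bar. Cluster 2 holds 71.0% of the summed UMIs in slie/slie injured and 91.1% in control injured limbs, while cluster 7 holds most of the Comp UMIs in slie/slie uninjured limbs.

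Cells that held 2 or more of the 9 genes in injured limbs were mainly Col11a1 cells. Among mesenchymal-like cells they were 18 of 112 in slie/slie injured (16.1%, 9.81 to 24.2), 90 of 309 in control injured (29.1%, 24.1 to 34.5) and 10 of 77 in slie/slie uninjured limbs (13.0%, 6.41 to 22.6). Neutrophil-like cells, which should lack these genes, included no such cell among 44 from slie/slie injured and among 152 from control injured limbs at median depths of 1641.5 and 1213 UMIs, which allows up to 8.04% and 2.40%. At least 1 of the genes was in 0 of those 44 and 4 of those 152 neutrophil-like cells. Pericyte or smooth muscle-like cells held 2 or more in 2 of 19 cells from slie/slie injured (10.5%, 1.30 to 33.1), 4 of 51 from control injured (7.84%, 2.18 to 18.9), 4 of 20 from slie/slie uninjured limbs (20.0%, 5.73 to 43.7), and 2 of 13 from control uninjured limbs (15.4%, 1.92 to 45.4). Schwann or glial-like cells of slie/slie uninjured limbs did so in 2 of 16 (12.5%, 1.55 to 38.3). Col11a1 was in 16 of the 18 slie/slie injured cells and in 86 of the 90 control injured cells. Sox9 together with a matrix gene was in 10 of those 18 slie/slie injured cells and in 52 of the 90 control injured cells, and Sox9 together with Sox5 or Sox6 in 2 and 11 cells. All 3 Sox genes were in 0 cells of slie/slie injured and 1 cell of control injured limbs. The pair held most often was Sox9 with Col11a1, in 9 cells of slie/slie injured and 51 of control injured limbs, or 60.0% and 70.8% of the Sox9 cells. Acan cells held Col11a1 in 6 of 9 cases for slie/slie injured limbs and 41 of 44 for control injured limbs, and all 12 Matn3 cells of control injured limbs held Col11a1.

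These counts moved with depth, and the deposited barcodes start at 259 UMIs in slie/slie injured and 500 UMIs in control injured limbs. Cells with 2 or more of the genes had median depths of 5869.5 UMIs in slie/slie injured and 5748.5 UMIs in control injured limbs, against 750 and 1376 UMIs for all mesenchymal-like cells. Among mesenchymal-like cells of at least 5000 UMIs, 10 of 16 from slie/slie injured limbs (62.5%, 35.4 to 84.8) and 47 of 67 from control injured limbs (70.1%, 57.7 to 80.7) held 2 or more, so these shares overlapped. In slie/slie uninjured limbs 8 of 46 cells of that depth did (17.4%, 7.82 to 31.4), below both injured libraries. The median cell of at least 5000 UMIs had 777 CPM of the summed genes in slie/slie injured and 1063 CPM in control injured limbs, and the highest cell 1819 and 9455 CPM. Thinned to 500 UMIs, the share with 2 or more was 4.03% of 79 cells in slie/slie injured (33 shallower cells left out), 7.26% of 309 in control injured (none left out) and 0.99% of 77 in slie/slie uninjured limbs. In cluster 2 the shares were 10 of 20 cells from slie/slie injured limbs (50.0%, 27.2 to 72.8) and 75 of 103 from control injured limbs (72.8%, 63.2 to 81.1).

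**Figure D4:**
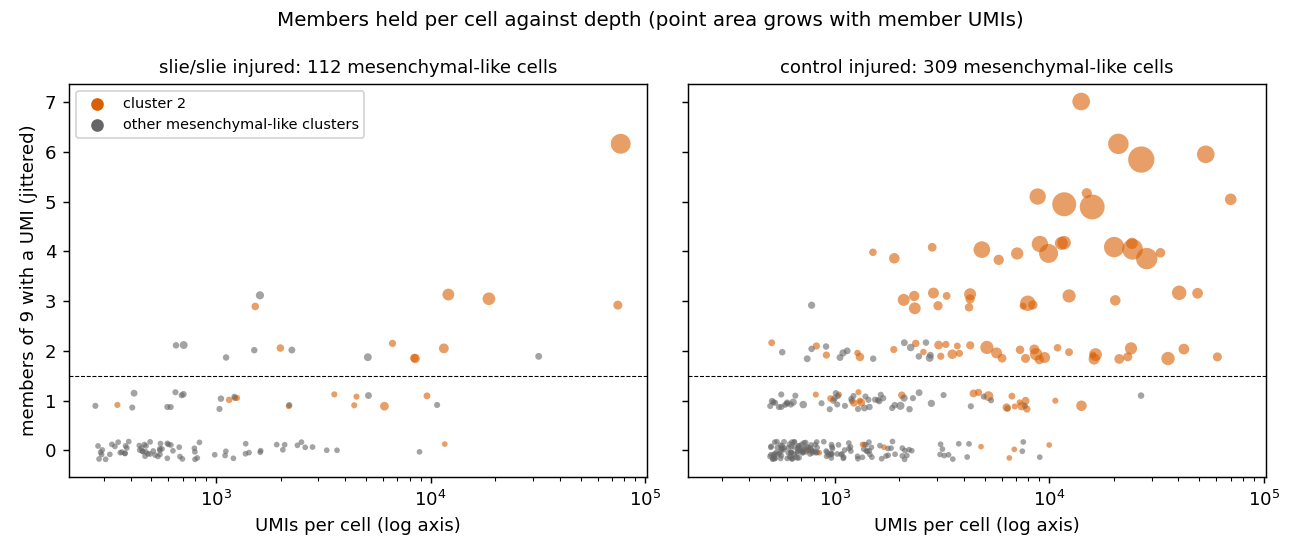
Number of the 9 genes with a UMI in each mesenchymal-like cell (vertical axis, jittered) against its UMIs (log axis), in slie/slie injured (left) and control injured limbs (right); point area grows with the UMIs of the 9 genes and the dashed line marks 2 or more. Cells with 4 or more genes number 1 in slie/slie injured limbs, at 76827 UMIs, and 24 in control injured limbs, all in cluster 2.

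Much of the signal in slie/slie injured limbs lay in 1 deep cell, while the 3 deepest cells carried little of it in control injured limbs. In slie/slie injured limbs 1 cell of 76827 UMIs held 74 of the 279 UMIs (26.5%), with 54 of Col11a1, 10 of Sox9, 6 of Comp, 2 of Acan, 1 of Sox5 and 1 of Matn3. The highest cell of control injured limbs held 6.18% of the UMIs of the 9 genes. The 3 deepest filtered cells held 30.8% of these UMIs and 20.4% of all UMIs in slie/slie injured limbs, against 1.01% and 5.12% in control injured limbs. The 10 deepest held 33.3% of these UMIs and 43.1% of all UMIs in slie/slie injured limbs, which is less than their share. In control injured limbs the 10 deepest held 4.89% and 14.5%. A second cell of slie/slie injured limbs, with 74520 UMIs, held only 10. Over filtered cells the log2 ratio of the sum was -1.22 (-1.44 to -1.01) without the 3 deepest cells of each library. In cluster 2 the log2 ratio was -1.11 (-1.45 to -0.81) without the 3 deepest cells of each library. Sox9 depended on them: cluster 2 of slie/slie injured limbs had 19 Sox9 UMIs with them and 3 without, against 128 and 123 in control injured limbs, and its log2 ratio there was -1.65 (-4.36 to -0.48) without them.

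Other genes of the cartilage programme were mixed in direction. Among all 8088 genes measured in mesenchymal-like cells 16.0% were lower and 13.5% higher by 1.5-fold or more in slie/slie injured than in control injured limbs. Of 6 other cartilage matrix genes 2 were lower (Col9a2 and Matn4) and 1 higher, with a median log2 ratio of -0.31. Matn4, a matrilin, was lower at -0.86 (-1.83 to -0.15), and Cilp was higher at 1.35 (0.34 to 2.28). The 17 Cilp UMIs of slie/slie injured mesenchymal-like cells lay in 5 cells, 9 of them in the cell of 74520 UMIs. Within 1.5-fold were Mgp, an inhibitor of mineral deposition, at -0.27 (-0.53 to -0.04), Matn2 at -0.35 (-1.01 to 0.19) and Col27a1, a fibrillar collagen, at -0.23 (-0.99 to 0.37). The slie/slie injured cell of 76827 UMIs held 52 of the 168 Mgp UMIs there. Without the 3 deepest cells of each library Mgp was lower past 1.5-fold, at -0.93 (-1.34 to -0.57). Matn2 was then at -0.05 and Col27a1 at 0.02. Cytl1, a cytokine-like cartilage protein, had 0 UMIs in both. Of 11 regulators and signals measured, 1 was lower (Creb3l2) and 2 were higher (Foxc1 and Bmp4), with a median of -0.05. All 21 Bmp4 UMIs of slie/slie injured limbs lay in 1 cell. Sox4 was at -0.54 (-1.02 to -0.13), Trps1 at -0.05 (-0.62 to 0.44), Creb3l2 at -0.63 (-1.37 to -0.05) and Mef2c at 0.02 (-0.98 to 0.79). Of 9 genes of proteoglycan synthesis, 4 were lower (Xylt1, Slc26a2, Csgalnact1 and Ugdh) and none higher, with a median of -0.33. Csgalnact1, which starts chondroitin sulfate chains, was at -0.62 (-1.12 to -0.19), and Ugdh, which makes their UDP-glucuronate, at -0.64 (-1.28 to -0.12). Without the 3 deepest cells of each library Csgalnact1 was at -0.15 (-0.70 to 0.31), within 1.5-fold, and Ugdh at -0.89 (-1.85 to -0.21). Chsy1, a chondroitin synthase, was at -0.33 (-0.90 to 0.16) and Papss1, which makes the sulfate donor, at 0.10 (-0.86 to 0.87). The median log2 ratio of all genes measured in these cells was 0.00.

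Markers of tendon and synovial lining, tissues that also use Comp and Acan, were read in the same cells. Of 5 tenocyte markers measured in mesenchymal-like cells 4 were higher in slie/slie injured than in control injured limbs (background 13.5% of 8088 genes) and none was lower, with a summed level of 1079 CPM in slie/slie injured and 444 CPM in control injured limbs. Without the 3 deepest cells the sums were 341 CPM (269 to 427) in slie/slie injured and 404 CPM (370 to 441) in control injured limbs, so the higher sum rests on those cells. Tnmd, a tendon membrane protein, was at 0.85 (0.33 to 1.33) and Scx, the tendon transcription factor, at 0.65 (0.04 to 1.19), while Fmod was at -0.29 (-0.87 to 0.21). Thbs4, a relative of Comp, was at 1.88 (1.63 to 2.13), but 201 of its 278 UMIs in slie/slie injured limbs lay in the cell of 74520 UMIs, and without the 3 deepest cells its ratio was -1.06 (-1.94 to -0.42). Scx was at 1.14 (0.19 to 1.92) and Tnmd at 0.60 (-0.11 to 1.18) without those cells. All 27 Kera UMIs of slie/slie injured mesenchymal-like cells were in that cell as well. Of the synovial lining markers, Prg4 (lubricin) had 127 UMIs in slie/slie injured and 2033 in control injured mesenchymal-like cells, a log2 ratio of -2.17 (-2.45 to -1.92), with 1 cell holding 74.8% of them in slie/slie injured and 1 cell holding 62.5% in control injured limbs. Has1 was at -1.74 (-3.65 to -0.69), Tspan15 had 0 UMIs in slie/slie injured and 3 in control injured cells, and Clic5 none in either. The 5 summed synovial lining markers were at 325 CPM in slie/slie injured and 1467 CPM in control injured mesenchymal-like cells. In slie/slie injured limbs, cells with 2 or more of the 9 genes had 433 CPM of these markers and cells with 0 or 1 had 121 CPM. Without the 1 cell that held 95 of those UMIs as Prg4 the first value was 105 CPM (64.0 to 162). In control injured limbs the values were 1989 CPM in cells with 2 or more and 209 CPM in cells with 0 or 1, and the first was 777 CPM (721 to 835) without the cell that held 1270 Prg4 UMIs. Without both cells the lining markers summed to 112 CPM (78.6 to 154) in slie/slie injured and 602 CPM (561 to 644) in control injured mesenchymal-like cells. Chondrocyte markers had 3 UMIs (11.3 CPM, 2.33 to 33.0) in slie/slie injured cells with 2 or more of the 9 genes and also 3 UMIs (21.4 CPM, 4.41 to 62.4) in those with 0 or 1. In control injured limbs they had 71 UMIs (69.9 CPM, 54.6 to 88.2) in cells with 2 or more and 14 UMIs (33.3 CPM, 18.2 to 55.8) in those with 0 or 1. The part of tendon, lining and cartilage cells in the differences of the 9 genes was not tested.

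Over 21 combinations of library and cluster with at least 20 cells, the log2 CPM of the summed genes correlated best with Ryk (Pearson's r 0.90), Gpx8 (0.90), Aspn (0.89), Ogn (0.89) and Angptl2 (0.88). Col11a1 was closest to Fbn2 (0.94), C1qtnf3 (0.94), H19 (0.92), Lrrc15 (0.92) and Tnn (0.92). Sox9 was closest to Mt2 (0.90), Mdfi (0.90), Phgdh (0.88), Pi4k2b (0.86) and Crabp2 (0.85). Acan was closest to P3h1 (0.89), Mex3b (0.84), Steap1 (0.84), Gpr176 (0.83) and Galnt16 (0.82), and Comp to Adamtsl1 (0.85), Islr (0.85), Sspn (0.83), C4b (0.82) and Tmod2 (0.82). The 21 points share 4 libraries and their depths, so these values describe the data and carry no test.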

How the data were processed

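The 4 libraries were made with 10x 3 prime single-cell RNA-seq from enzyme-digested tissue, per the labels. Each deposited matrix holds whole-number UMI counts. Per the file headers, version 5.0.1 of Cell Ranger wrote them, and the submitters' processing notes name mm10. A UMI counts a captured transcript near its 3 prime end, so levels carry no correction for length. All matrices were used, and 0 columns were left out.

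Cells were normalised to 10000 UMIs and clustered with scanpy 1.11.5 (2000 variable genes without the 9 genes, 30 components, 15 neighbours, Leiden resolution 1), with no integration of libraries. Each of the 17 clusters took the name of the list with most markers detected in at least 20% of cells and at 2 times the median over clusters. At least 3 such markers were required, 1 of them among the 10 leading genes, or else 5, and 1 cluster stayed unnamed. The naming limits were chosen with the clusters already in view. Scrublet doublets were kept, and their removal is an alternative.

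With 1 library per group no test was run. Levels have exact Poisson and shares exact Clopper-Pearson intervals at 95%. Ratios are of CPM after adding 1 UMI, with exact conditional binomial intervals for genes of at least 20 UMIs over both groups and populations of at least 10 cells. A count of 0 was set to 3 UMIs for bounds. Thinned values are means of 100 draws. Genes other than the 9 and Ddr2 were the 4 with most UMIs in each list, plus the 5 most correlated ones. Kera, Cilp, Matn4, Foxc1, Bmp4, Col9a1, Col9a2, Col9a3, Scrg1, Xylt1, Slc26a2 and the markers at 0 were named after their values were seen. The 9 genes and all lists were chosen with earlier results of these data known. Calculations were checked on simulated data, and edgeR 4.0.16 and DESeq2 1.42.0 gave only alternative scalings of the counts as deposited.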

Additional observations from a re-analysis of the deposited data

Results flagged for a closer look

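Comp had a log2 ratio of -3.56 for injured over uninjured limbs in slie/slie mice and 1.02 in control mice, over filtered cells. The directions are opposite with 1 library per group, and the difference was not tested. The control value rests on 8 UMIs in 4 cells of the control uninjured library.

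Barcodes of control uninjured limbs that did not pass the filter held 50 Comp UMIs, in 44 of 1015 barcodes with a median of 93 UMIs. That is 148 CPM (110 to 196), against 4.15 CPM in such barcodes of slie/slie injured, 2.07 CPM in those of control injured and 20.3 CPM in those of slie/slie uninjured limbs. No comparison of filtered cells uses these barcodes.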

How the results depend on the processing

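The summed genes stayed lower in slie/slie injured than in control injured limbs under all 16 alternatives over filtered cells (log2 -1.37 to -0.58) and all 20 in mesenchymal-like cells (-1.54 to -0.67). Over filtered cells the ratio was -1.22 without the 3 deepest cells of each library, -1.20 without the cell with the most UMIs of the 9 genes, -1.37 without 3 such cells, -0.60 with cells weighted equally and -0.58 thinned to 500 UMIs. The last 3 gave -1.54, -0.84 and -0.67 in mesenchymal-like cells. Removing cells by these UMIs takes more from slie/slie injured limbs, where 1 cell holds 26.5% of them, so the wider gap says nothing of stability. Marker list sums without deep cells were chosen after seeing the data. Genes lower by 1.5-fold numbered 3 without the deepest cells in both populations, 1 (filtered) and 2 (mesenchymal-like) after thinning, and 3 at a 2-fold threshold over filtered cells; 1 was higher after thinning in both populations and 1 with no UMI minimum over filtered cells. The gene counted higher after thinning was Matn3, at 1.02 and 1.09, values that come from the 1 UMI added to small thinned sums. Equal weights turned Thbs4 to -0.10 and -0.31 and Has1 to 0.70 and 0.54, and without the deepest cells Thbs4 was -1.06 in mesenchymal-like cells.

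For slie/slie injured over slie/slie uninjured limbs the filtered sum was 0.28 with the main settings. It was 0.56 without cells under 0.5% mitochondrial UMIs, 0.015 without the deepest cells, 0.78 with equal weights and 0.75 thinned. Without Comp it was 1.59 and without Col11a1 -0.93, and 5 genes were higher with no minimum. In mesenchymal-like cells the sum was 1.025 with the main settings, 2.75 without Comp and -0.44 without Col11a1. Both sums thus changed direction when Col11a1 was left out. Acan was -0.45 with equal weights and -0.15 thinned. Lower genes there numbered 0 without Comp and 3 with no minimum, and higher genes 6 with no minimum.

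For control injured over control uninjured limbs the filtered sum was 1.25 with the main settings. It was 1.70 from 100 genes per cell upwards, 2.16 without Scrublet doublets, 0.88 without the deepest cells and 2.50 without the 3 highest cells. With equal weights it was 0.67, thinned 0.50 and without Col11a1 0.66. Comp was -0.53 with equal weights and -1.08 thinned. Lower genes numbered 2 with equal weights, 3 thinned and 4 with no minimum, and 1 was higher when thinned. The 1 UMI added to the much smaller control uninjured total lowers these ratios. Matn3, with 20 UMIs in control injured and none in control uninjured limbs, was at -2.93 when thinned for that reason. Hapln1, with 7 UMIs against none, was likewise counted as lower with no minimum. Neither is a lower level. The mesenchymal-like comparison of control limbs had no value, with 5 cells in control uninjured limbs. For values that moved, the cause was not tested beyond what each setting removes.

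The share of mesenchymal-like cells with 2 or more genes in slie/slie injured limbs was 28.0% from 500 genes per cell upwards, 33.3% without cells under 0.5% mitochondrial UMIs, 4.03% thinned, 7.14% without Col11a1 and 5.36% for 3 or more genes. In control injured limbs these shares were 40.4%, 50.3%, 7.26%, 14.6% and 13.3%. No paired analysis was possible because each group is 1 library. Leaving out replicates was not possible for the same reason.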
